A study of Arabidopsis thaliana with 6 samples.

Results

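The 10 genes described here are transcripts by which oxidative stress is read in *Arabidopsis thaliana* leaves, together with regulators of that response. They are 4 marker genes (ATTI1, AT1G19020, AT1G05340 and AT1G57630), the kinase gene OXI1, the cell death regulator BAP1, 3 genes of the SRO family (RCD1, SRO2 and SRO5) and the zinc-finger gene CZF1. They were chosen by locus from the 33602 genes of the count table, and all 10 had enough reads to be tested among 18504 genes. Leaf mRNA was sequenced from the catalase mutant *cat2-2* in the Columbia-0 background, which lacks the main leaf enzyme for removing the hydrogen peroxide of photorespiration. Every plant was 3 weeks old. All were raised at 3000 ppm CO2 and 21 °C under an irradiance of 120 µmol m-2 s-1, with a relative humidity of 75% and 16 h of light alternating with 8 h of dark. The high CO2 group was sampled from those conditions at 0 h. The high light group was sampled after 3 h in another chamber at 400 ppm CO2 and 21 °C, with an irradiance of 1200 µmol m-2 s-1 and a relative humidity of 55%. Each group had 3 libraries, and each library pooled middle-aged leaves of 15 plants. All libraries carry *cat2-2* and no wild type is among them, so effects of CO2, light, humidity, chamber, sampling time and genotype cannot be told apart.

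Reactive oxygen species reach the nucleus by several routes that end in fast transcription. OXI1 is an AGC-type protein kinase that is activated by hydrogen peroxide and by the kinase PDK1, and it acts upstream of the mitogen-activated protein kinases MPK3 and MPK6. RCD1 is a nuclear hub protein that binds transcription factors such as DREB2A and ANAC013 through its C-terminal RST domain and holds them in check, and the SRO genes encode its relatives. BAP1 is a small C2-domain membrane protein that restrains cell death, and its transcript is widely used to read singlet oxygen made in the chloroplast.

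Transcripts of all 10 genes rose in high light, against 30.4% of all tested genes (edgeR quasi-likelihood test, Benjamini-Hochberg adjusted p under 0.05). Another 30.4% of tested genes fell, and the counts given for gene lists below are to be read beside both shares. The log2 fold changes ran from 2.31 for RCD1 to 8.77 for OXI1, with a median of 6.48, where the median of all tested genes was -0.06. In all 10 genes the lowest high light library lay above the highest high CO2 library, which held for 33.3% of tested genes. For 6 of the 10 the rise was at least 32-fold, a size reached by 2.36% of tested genes. Leaf RNA was pooled, so a change in the number of cells of a type and a change in RNA per cell cannot be told apart. Levels are given as CPM, the counts of a library scaled to a common library size with edgeR's TMM factors, and errors are the SD over 3 libraries unless named otherwise.

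**Figure D1:**
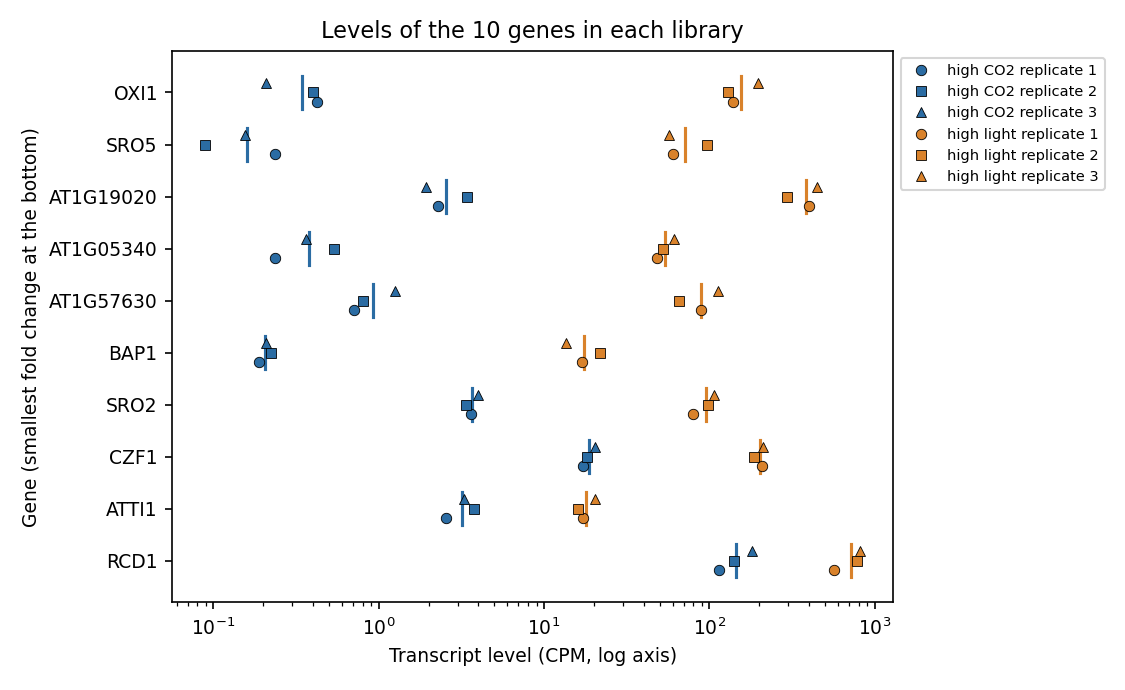
Level of each of the 10 genes in each of the 6 libraries, as CPM on a log axis; symbols are replicates, vertical bars are group means, and genes are ordered by fold change with the smallest at the bottom. The groups do not overlap for any of the 10 genes, and they lie farthest apart for OXI1 and SRO5.

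The 250 bases before each annotated transcript start were read from the RefSeq TAIR10.1 genome, whose annotation matched all 10 loci, and are shown for the 5 genes whose level or motif content the results below return to. Motifs were searched on both strands, and capitals mark the matches, so that a W-box core on the other strand reads GTCAA.
OXI1: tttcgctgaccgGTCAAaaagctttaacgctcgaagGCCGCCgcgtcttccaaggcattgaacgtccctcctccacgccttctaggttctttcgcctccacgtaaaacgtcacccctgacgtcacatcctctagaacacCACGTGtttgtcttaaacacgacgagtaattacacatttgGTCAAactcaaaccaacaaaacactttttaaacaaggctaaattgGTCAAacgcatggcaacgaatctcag
AT1G19020: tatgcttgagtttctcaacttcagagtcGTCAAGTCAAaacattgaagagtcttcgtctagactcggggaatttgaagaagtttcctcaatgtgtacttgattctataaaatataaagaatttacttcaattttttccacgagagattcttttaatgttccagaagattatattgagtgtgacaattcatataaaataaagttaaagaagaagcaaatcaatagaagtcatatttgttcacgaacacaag
AT1G57630: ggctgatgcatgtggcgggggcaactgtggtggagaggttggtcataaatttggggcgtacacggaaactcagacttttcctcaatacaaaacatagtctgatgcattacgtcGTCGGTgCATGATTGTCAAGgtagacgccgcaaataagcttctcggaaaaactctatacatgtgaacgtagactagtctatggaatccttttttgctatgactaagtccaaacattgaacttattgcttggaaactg
SRO2: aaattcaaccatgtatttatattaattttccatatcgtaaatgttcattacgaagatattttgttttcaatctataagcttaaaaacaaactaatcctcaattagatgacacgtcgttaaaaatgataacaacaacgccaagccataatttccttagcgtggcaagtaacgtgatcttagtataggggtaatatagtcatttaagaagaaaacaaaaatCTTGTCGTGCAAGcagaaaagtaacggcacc
SRO5: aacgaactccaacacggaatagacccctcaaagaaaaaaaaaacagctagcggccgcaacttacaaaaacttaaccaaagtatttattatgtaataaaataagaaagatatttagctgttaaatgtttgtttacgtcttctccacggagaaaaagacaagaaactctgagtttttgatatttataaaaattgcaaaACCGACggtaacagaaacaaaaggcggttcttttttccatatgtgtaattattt
These stretches are chr3:9195084-9195333 for OXI1, chr1:6567752-6568001 for AT1G19020, chr1:21345195-21345444 for AT1G57630, chr1:8350478-8350727 for SRO2 and chr5:25097694-25097943 for SRO5, all on the plus strand. OXI1 held 3 copies of the W-box core TTGAC, which WRKY transcription factors bind, 1 G-box (CACGTG) and 1 GCC box (GCCGCC). AT1G19020 held 2 W-boxes that abut each other 217 and 222 bases before the start. AT1G57630 and SRO2 each matched an open pattern searched for the mitochondrial dysfunction motif, the element bound by ANAC013 and ANAC017. Any base was allowed before the last, where the AT1G57630 match has T and the SRO2 match has A. Whether those factors accept either match was not tested. In AT1G57630 a W-box lies within the match. AT1G57630 and SRO5 each held the dehydration-responsive element ACCGAC, to which DREB2 factors bind.

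Over all 10 genes, 5 held at least 1 W-box, against 44.9% of 27443 gene starts, so this share is near the background. At least 2 W-boxes were present in 4 of the 10 (ATTI1, AT1G19020, OXI1 and CZF1), against 14.1% of all. The open pattern searched for the mitochondrial dysfunction motif matched in 2 of 10 (1.75% of all). The G-box was present in 2 of 10 (OXI1 and AT1G05340, 6.49% of all) and the dehydration-responsive element in 2 of 10 (4.70% of all). The GCC box was in OXI1 alone among the 10 (1.87% of all). The rapid stress response element CGCGTT (2.59% of all) and the heat shock element (0.386% of all) were in none of the 10 windows, and the windows of BAP1 and RCD1 held no match to any of the 7 motifs. These are matches of letters and were not tested as sites.

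**Figure D2:**
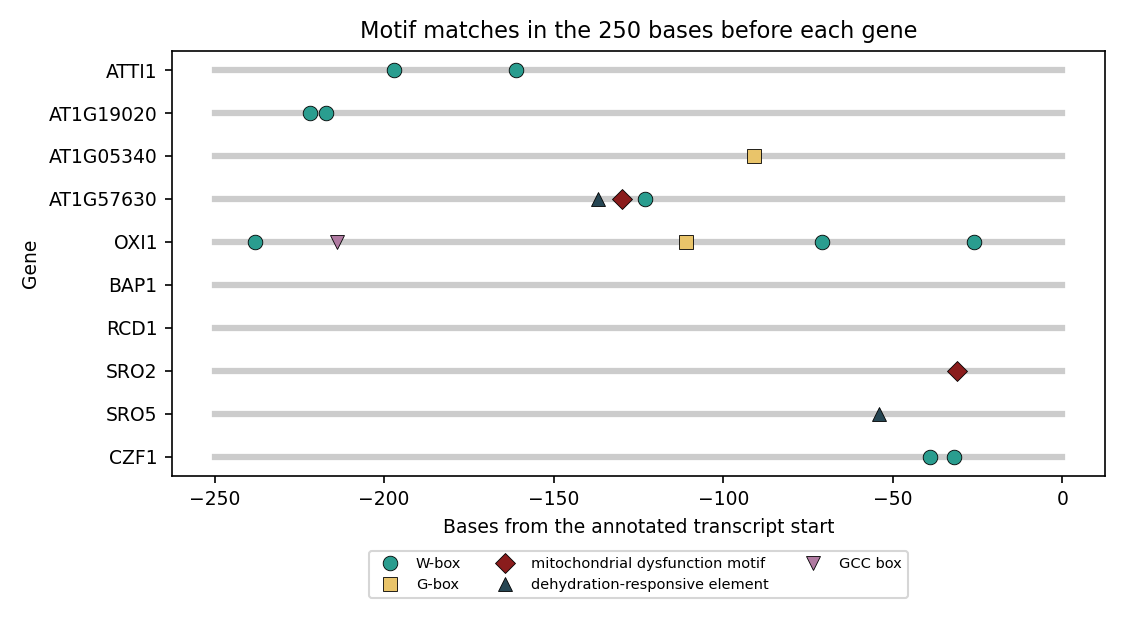
Motif matches in the 250 bases before the start of each of the 10 genes, with distance from the annotated transcript start on the x axis and 1 symbol per motif kind. OXI1 has 5 matches of 3 kinds, AT1G57630 has 3 neighbouring matches, and BAP1 and RCD1 have none.

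Among the 4 markers, AT1G19020, whose small protein has no settled function, had the highest level per kb of exon in high light. It stood at 2.27, 3.42 and 1.93 CPM in the high CO2 libraries and at 402, 295 and 448 CPM in the high light libraries. The log2 fold change was 7.22 ± 0.29 (SE, adjusted p = 3.66e-07, edgeR), and 32 of its exon bases (4.55%) overlap another gene on the same strand. The second replicate was the highest of the high CO2 libraries and the lowest of the high light libraries, so replicate numbers did not move together for this gene. AT1G05340, which encodes a short cysteine-rich transmembrane stress protein, stood at 0.236, 0.533 and 0.364 CPM in high CO2 and at 48.1, 52.7 and 61.4 CPM in high light. Its high CO2 level rests on 24 counts over 3 libraries, and its log2 fold change was 7.13 ± 0.24 (SE, adjusted p = 2.3e-07, edgeR).

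AT1G57630 encodes a protein with a TIR domain, the signalling module of many immune receptors. Its levels were 0.709, 0.800 and 1.25 CPM in high CO2 and, in high light, 88.5, 65.2 and 112 CPM, a log2 fold change of 6.60 ± 0.30 (SE, adjusted p = 5.72e-07, edgeR). ATTI1, a trypsin inhibitor gene of the defence against herbivores, changed far less, and its levels were 2.55, 3.78 and 3.28 CPM in high CO2 and, in high light, 17.1, 16.1 and 20.3 CPM. Its groups were still apart, the lowest high light library being 4.25-fold above the highest high CO2 library, and its log2 fold change was 2.47 ± 0.18 (SE, adjusted p = 8.18e-06, edgeR). The fifth gene commonly counted with these markers, AT2G21640, annotated as a marker for oxidative stress response protein, rose from 6.71 ± 1.03 to 222 ± 46.6 CPM (log2 fold change 5.04 ± 0.22, SE). The list of these ROS (reactive oxygen species) hallmark genes thus had 5 of 5 risen, with a median log2 fold change of 6.60.

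OXI1 and SRO5 had the largest fold changes of the 10, at 8.77 and 8.76 (log2), and OXI1 ranked 53 of 18504 tested genes. Their order is not settled, since SRO5 stood above OXI1 in 7 of the 14 alternatives tried. OXI1 stood at 0.425, 0.400 and 0.208 CPM in high CO2, which is 9, 9 and 4 counts, and at 139, 130 and 195 CPM in high light. Even the lowest high light library was 306-fold above the highest high CO2 library. The log2 fold change was 8.77 ± 0.30 (SE, adjusted p = 2.3e-07, edgeR). Of the 12 genes of the OXI1 module, all tested, 7 rose, 2 fell and 3 were not called. MPK3 rose from 96.0 ± 38.0 to 332 ± 33.7 CPM (log2 fold change 1.79 ± 0.26, SE) and MPK6 from 35.1 ± 5.26 to 70.8 ± 8.20 CPM (1.02 ± 0.15, SE). Among the PTI1-like kinases that OXI1 and its relatives act on, AT3G59350 rose by 3.26 ± 0.19, PTI1-4 by 0.83 ± 0.14 and AT2G30740 by 0.78 ± 0.13 (log2 fold change, SE). AT1G06700 was not called (0.01 ± 0.11, SE, adjusted p = 0.921, edgeR), and its value was -0.26 with upper-quartile scaling. The upstream kinase gene PDK1 fell from 32.4 ± 3.38 to 19.7 ± 2.15 CPM (log2 fold change -0.72 ± 0.14, SE). AT3G10540, its nearest relative by coding sequence, was not called (0.02 ± 0.14, SE, adjusted p = 0.904, edgeR). UCN, a gene of the same kinase class, had a log2 fold change of -0.53 ± 0.14 (SE, adjusted p = 0.00936, edgeR), and its call was lost without high CO2 replicate 2 (adjusted p = 0.0709) and with replicate 3 left out of both groups (adjusted p = 0.055). UCNL, the nearest relative of UCN, rose by 0.79 ± 0.17 (log2 fold change, SE, adjusted p = 0.00362, edgeR).

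The nearest coding sequence to OXI1 in the genome was AT4G13000, another AGC kinase gene, with 75.6% identity over 1043 aligned bases. It stood at 1.70, 1.91 and 1.72 CPM in high CO2 and at 1.94, 0.953 and 1.01 CPM in high light (adjusted p = 0.243, edgeR). The high light libraries spread over both sides of the high CO2 values. The log2 ratio of OXI1 to AT4G13000 counts was 9.27 higher in high light, with no overlap between groups (exact permutation test, two-sided p = 0.1, the smallest that 3 against 3 libraries can give). Without high light replicate 1, AT4G13000 was called lower (log2 fold change -0.85, adjusted p = 0.0312, edgeR).

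BAP1 had the lowest level of the 10 per kb of exon in high light. It stood at 0.189, 0.222 and 0.208 CPM in high CO2, a total of 13 counts, and at 17.0, 21.7 and 13.6 CPM in high light. The high CO2 libraries lay close together and the high light libraries spread more, and the log2 fold change was 6.36 ± 0.29 (SE, adjusted p = 5.74e-07, edgeR). BAP2, its nearest relative and an overlapping inhibitor of cell death, rose from 0.527 ± 0.042 to 1.74 ± 0.42 CPM (log2 fold change 1.71 ± 0.31, SE, adjusted p = 0.00131, edgeR). The log2 ratio of BAP1 to BAP2 counts was 4.57 higher in high light, with no overlap between groups (exact permutation test, two-sided p = 0.1, the smallest possible). BON2, one of the copine genes with which BAP proteins work, rose by 0.51 ± 0.13 (log2 fold change, SE, adjusted p = 0.00856, edgeR), and with upper-quartile scaling it was not called (log2 fold change 0.24, adjusted p = 0.135). BON1 and BON3 had too few reads to be tested, and the exons of BON1 overlap those of AT5G61910, whose coding sequence contains an identical copy of the BON1 coding sequence.

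Of the 8 genes listed as readouts or mediators of chloroplast singlet oxygen, BAP1 and OXI1 among them, 6 rose, 1 fell and 1 was not called. AT3G28580, an AAA-type ATPase gene used as a singlet oxygen marker, rose by 5.72 ± 0.40, WRKY33 by 6.03 ± 0.28 and WRKY40 by 7.73 ± 0.24 (log2 fold change, SE). EX1, which encodes the thylakoid protein EXECUTER1 that passes the singlet oxygen signal on, fell by 0.46 on the log2 scale (adjusted p = 0.0159, edgeR). That call was lost with replicate 3 left out of both groups, with scaling by library totals, and without high CO2 replicate 2, high CO2 replicate 3 or high light replicate 2 (adjusted p 0.0517 to 0.126).

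**Figure D3:**
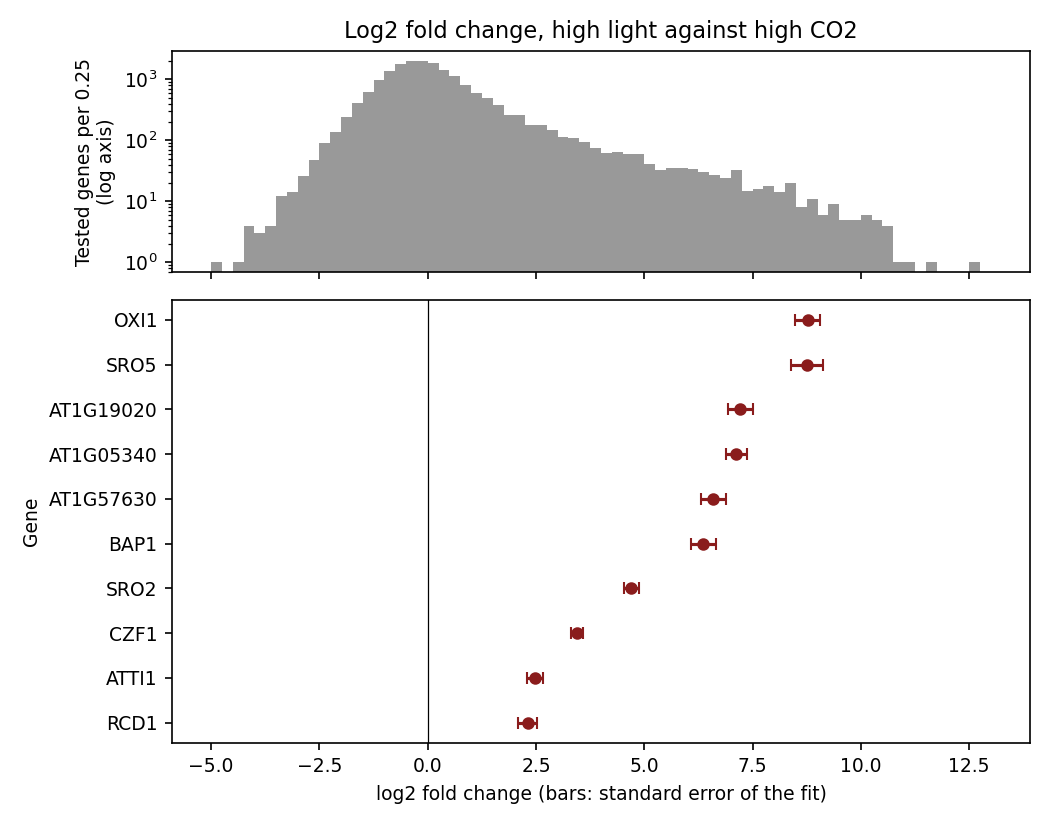
Top, number of tested genes per 0.25 of log2 fold change (log axis); bottom, log2 fold change of the 10 genes with the standard error of the edgeR fit. The 10 genes lie between 2.31 and 8.77, while the median of all 18504 tested genes is -0.06.

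The SRO family, RCD1 and the genes named SIMILAR TO RCD ONE, has 6 members in this genome. All 5 that could be tested rose, and SRO4 had 0 counts in all 6 libraries. RCD1 had the highest level per kb of the 10 genes in high CO2. It stood at 115, 141 and 181 CPM, and it reached 568, 778 and 820 CPM in high light. Its log2 fold change was 2.31 ± 0.22 (SE, adjusted p = 3.65e-05, edgeR), next to that of ATTI1 at the low end of the 10, and ATTI1 was the lower in 2 of the 14 alternatives. SRO2, at 3.59, 3.38 and 3.96 CPM in high CO2, stood at 79.9, 97.6 and 107 CPM in high light (4.70 ± 0.17, SE, adjusted p = 2.53e-07, edgeR). SRO5 went from the lowest level per kb of the 10, at 0.236, 0.0889 and 0.156 CPM or 5, 2 and 3 counts, to 60.3, 97.2 and 56.8 CPM. Its log2 fold change of 8.76 ± 0.37 (SE, adjusted p = 4.3e-07, edgeR) ranked 54 of all tested genes.

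Of the other family members, SRO1, the closest relative of RCD1, with which it shares functions, rose from 34.9 ± 6.47 to 128 ± 9.46 CPM (log2 fold change 1.87 ± 0.16, SE). SRO3 had 1, 4 and 0 counts in high CO2 and 407, 963 and 534 counts in high light. Its fitted log2 fold change of 8.38 ± 0.57 (SE) moved between 7.95 and 9.89 over the alternatives tried. The family split into RCD1 and SRO1, which had the higher levels per kb at the start and the smaller fold changes, and SRO2, SRO3 and SRO5, which started low. Within libraries, the log2 ratio of SRO5 to RCD1 counts was 6.32 higher in high light and that of SRO2 to RCD1 counts 2.37 higher, each with no overlap between groups (exact permutation test, two-sided p = 0.1 each, the smallest possible). The log2 ratio of RCD1 to SRO1 counts was 0.44 higher, also with no overlap (exact permutation test, two-sided p = 0.1).

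Divided by exon length, the summed level of the family went from 46.8 ± 9.60 to 333 ± 53.8 CPM per kb. RCD1 made up 67.9% ± 2.34 of that sum in high CO2 and 47.5% ± 2.72 in high light, and it remained the largest share in all 6 libraries. SRO1 went in share from 26.1% ± 1.49 to 13.5% ± 1.75, although its level rose. SRO2 went from 5.60% ± 0.875 to 20.2% ± 1.48 of the sum, SRO5 from 0.203% ± 0.123 to 12.0% ± 2.87 and SRO3 from 0.141% ± 0.166 to 6.78% ± 2.02. By coding length instead of exon length, RCD1 held 76.8% and 59.1%, SRO2 3.59% and 14.3% and SRO5 0.172% and 11.2%, in high CO2 and high light in turn. No share overlapped between groups except that of SRO4, which was 0 throughout.

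**Figure D4:**
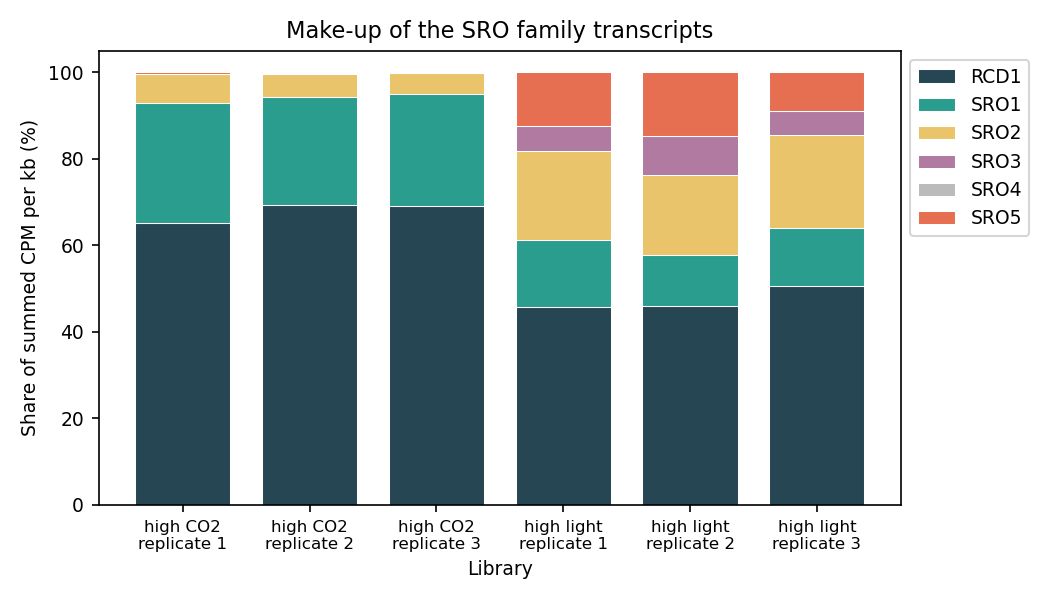
Share of each SRO family gene in the family's summed CPM per kb of exon, 1 stacked bar per library. RCD1 holds 67.9% on average in high CO2 and 47.5% in high light, the share of SRO1 is also smaller in high light, and those of SRO2, SRO3 and SRO5 are larger.

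SRO5 lies opposite P5CDH, a mitochondrial dehydrogenase gene of proline breakdown, and the pair is a known source of antisense small RNA under salt stress in Arabidopsis. In the annotation, 811 exon bases, 45.5% of SRO5, are shared with P5CDH on the other strand. P5CDH stood at 71.7, 66.7 and 58.3 CPM in high CO2 and at 50.99, 50.1 and 38.3 CPM in high light, and the groups do not overlap. Its log2 fold change was -0.50 ± 0.15 (SE, adjusted p = 0.0188, edgeR), against 8.76 for SRO5. The call for P5CDH was lost without high CO2 replicate 1 (adjusted p = 0.0765), high CO2 replicate 2 (adjusted p = 0.0832) or high light replicate 3 (adjusted p = 0.0642, edgeR). SRO2 shares 177 exon bases (12.5%) with AT1G23560 on the other strand, and the other 8 genes share none. The library kit keeps the strand, but whether the counting used it is not given in the sources used here, so the values of SRO5, SRO2 and P5CDH are uncertain by the reads of the shared stretches.

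All 5 transcription factor genes listed as partners of RCD1 rose. DREB2C, a dehydration-response factor of the heat and drought pathways, had a log2 fold change of 9.28 ± 0.33 and DREB2A one of 8.30 ± 0.27 (SE). The high CO2 level of DREB2C rests on 0, 3 and 3 counts, and its log2 fold change moved between 8.74 and 9.82 over the alternatives tried. ANAC013, a factor of mitochondrial retrograde signalling, rose from 12.9 ± 2.35 to 258 ± 13.1 CPM, and ANAC046, a senescence factor, from 0.945 ± 0.380 to 19.8 ± 1.26 CPM. ANAC017, the membrane-bound factor that acts upstream of ANAC013, rose least, from 54.9 ± 7.19 to 89.5 ± 10.3 CPM (log2 fold change 0.71 ± 0.14, SE, adjusted p = 0.00285, edgeR). The log2 fold change of RCD1 itself, 2.31, lay between that of ANAC017 and those of the other 4.

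CZF1 encodes a CCCH zinc-finger protein with ankyrin repeats, one of a pair of salt-inducible paralogs with SZF1. It stood at 17.2, 18.2 and 20.4 CPM in high CO2 and at 208, 186 and 211 CPM in high light, the tightest high light group of the 10 genes relative to its mean (coefficient of variation 6.75%). Its log2 fold change was 3.44 ± 0.14 (SE, adjusted p = 3.66e-07, edgeR). SZF1 rose from 13.7 ± 0.385 to 326 ± 52.4 CPM (4.58 ± 0.18, SE). The log2 ratio of CZF1 to SZF1 counts differed by -1.12 (high light minus high CO2), with no overlap between groups (exact permutation test, two-sided p = 0.1, the smallest possible). The tandem zinc-finger list held 10 genes, of which 8 were tested. Of these, 2 rose, 3 fell and 3 were not called, with a median log2 fold change of -0.42. These counts are near the shares of all tested genes, 30.4% risen and 30.4% fallen. TZF1 fell from 44.0 ± 8.64 to 13.6 ± 2.89 CPM.

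The relatives of the small marker genes were mixed as well. Of the trypsin inhibitor genes, 3 of 5 tested rose, with ATTI1 the largest. ATTI2, at 0.663 ± 0.403 and 2.02 ± 0.89 CPM, was called at adjusted p = 0.0222 (edgeR), and this call was lost without high light replicate 1 (adjusted p = 0.0888). AT2G43530 had a log2 fold change of 0.57 ± 0.20 (SE, adjusted p = 0.0362, edgeR), and its call was lost with upper-quartile scaling and without high CO2 replicate 2, high light replicate 1 or high light replicate 2 (adjusted p 0.0531 to 0.228). AT2G43535, the nearest coding sequence to ATTI1 (79.7% identity), stood at 19.0, 27.3 and 7.34 CPM in high CO2 and at 12.7, 13.1 and 5.97 CPM in high light (adjusted p = 0.174, edgeR). Replicate 3 was the lowest library of each group, and AT2G43535 was called lower without high CO2 replicate 3 (adjusted p = 0.038) and with replicate 3 left out of both groups (adjusted p = 0.00735). With a replicate block it was also called lower (log2 fold change -0.67, adjusted p = 0.00521, edgeR), though the main test did not pair libraries. The log2 ratio of ATTI1 to AT2G43535 counts was 3.12 higher in high light, with no overlap (exact permutation test, two-sided p = 0.1).

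Among the cysteine-rich transmembrane genes, 5 of 8 tested rose and 3 were not called, with AT1G56060 (log2 fold change 7.39 ± 0.26, SE) close to AT1G05340. AT2G32190, the nearest coding sequence to AT1G05340 (75.6% identity), rose from 0.839 ± 0.184 to 7.31 ± 3.18 CPM (3.11 ± 0.36, SE), and the log2 ratio of AT1G05340 to AT2G32190 counts was 4.11 higher in high light (exact permutation test, two-sided p = 0.1). Of the TIR-domain genes 7 of 8 tested rose, and the median of the 8 was 1.91 (log2 fold change). AT1G66090 (7.14 ± 0.18, SE) was the only one of them above AT1G57630. Across these groups at least 1 relative of each of ATTI1, AT1G05340, AT1G57630, OXI1 and CZF1 was not called in the same fit. TIR and AT1G72920 of the TIR-domain list and PCC1 and AT3G22235 of the cysteine-rich list have near copies elsewhere in the genome, so their values are uncertain.

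**Figure D5:**
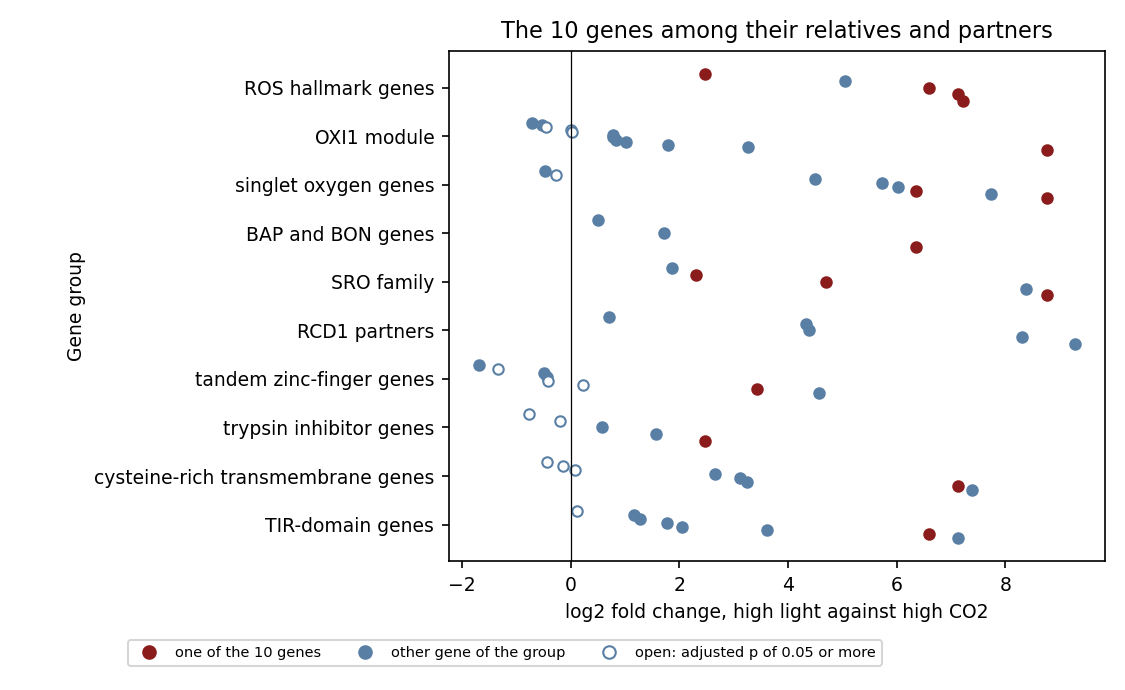
Log2 fold change of the tested genes of 10 groups, with the 10 genes in dark red, their relatives and partners in blue, and open symbols for genes not called (adjusted p of 0.05 or more, edgeR). OXI1 (8.77) is followed in its module by AT3G59350 (3.26), BAP1 (6.36) by BAP2 (1.71), and RCD1 (2.31) has the second smallest value of the SRO genes tested.

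Levels of different genes were compared per kb of exon. In high CO2 the order was led by RCD1 at 31.9 ± 7.32 CPM per kb, then CZF1 at 7.55 ± 0.648, and each was above the next gene in all libraries. ATTI1 (4.21 ± 0.811 CPM per kb), AT1G19020 (3.61 ± 1.11) and SRO2 (2.57 ± 0.207) followed, and neighbours in this run overlapped. Below them came AT1G57630 (1.29 ± 0.406 CPM per kb), AT1G05340 (0.478 ± 0.188), OXI1 (0.206 ± 0.0708), BAP1 (0.147 ± 0.0119) and SRO5 (0.0900 ± 0.0414), where the libraries of OXI1 overlapped those of BAP1 and those of SRO5.

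In high light AT1G19020 stood first, at 542 ± 112 CPM per kb and above all other genes in each library. RCD1 (159 ± 29.7 CPM per kb), AT1G57630 (124 ± 33.0), OXI1 (92.5 ± 21.1), CZF1 (81.8 ± 5.52), AT1G05340 (68.3 ± 8.59) and SRO2 (67.1 ± 9.79) formed a run in which each overlapped the next. SRO5 (40.1 ± 12.6 CPM per kb), ATTI1 (23.4 ± 2.86) and BAP1 (12.5 ± 2.91) closed the order without overlap. OXI1 thus went from place 8 to place 4, while ATTI1 went from place 3 to place 9. By coding length the first place in each group was the same gene, but AT1G05340 stood at place 3 in high light and ATTI1 at place 2 in high CO2. OXI1 went from place 9 to place 5 by that length.

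In gene structure the 10 had little in common. Coding lengths ran from 219 bases for AT1G05340 to 1794 for CZF1, and 4 of 10 (AT1G19020, AT1G57630, BAP1 and CZF1) had a single coding exon, against 23.3% of 27444 protein-coding genes. None of the 10 had a coding sequence elsewhere in the genome that was at least 95% identical over at least 50% of its length.

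High light replicate 3 was the highest of its group for 8 of the 10 genes, and high CO2 replicate 1 was the lowest of its group for 6 of 10. These counts were not made over all tested genes, so they are not read as particular to the 10. All 10 genes were nevertheless called higher without each library in turn, with log2 fold changes of 2.18 to 9.17. The 6 libraries fall into the 2 groups, so likeness of pattern says little here: 523 to 1215 tested genes per member had a Pearson r of log2 CPM above 0.99 with it over the 6 libraries, and HSP81-2 was the nearest to OXI1.

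Library totals were 18047295 to 24149149 counts, so 1 count was worth 0.0433 to 0.0521 CPM. The mesophyll markers RBCS1A, LHCB1.3 and LHCB4.1 were abundant, as a leaf label requires, with a summed level of 37174 to 55057 CPM in high CO2 and 18601 to 28432 CPM in high light, and 3 of 3 fell. LHCB1.3 has a near copy, so its value is uncertain. Root markers were nearly absent (at most 1.20 CPM summed). Epidermis and phloem markers fell in 3 of 3 cases each, with summed ranges of 39.0 to 47.6 and 21.3 to 26.0 CPM for epidermis and 247 to 269 and 165 to 204 CPM for phloem, in high CO2 and high light in turn. Of the guard cell markers 1 of 3 rose and 2 fell (44.1 to 45.2 and 37.6 to 52.6 CPM summed), and of the seed and flower markers the 1 tested fell (0.850 to 1.61 and 0.433 to 0.643 CPM summed). Of all tested genes, 30.4% were lower and 30.4% higher in high light. The part of the marker shifts in the rises of the 10 genes was not tested.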

How the data were processed

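Messenger RNA was sequenced in 6 libraries, 3 per group, and groups were taken from the sample titles. Per the labels' protocols, RNA came from TRIzol and RNeasy extraction and libraries from the TruSeq Stranded mRNA kit. The submitters' processing notes name Trim Galore 0.3.3, TopHat2 2.1.0, featureCounts, Subread 1.4.6 and the TAIR10 build. Not given in the sources used here were the strand setting and the handling of reads with several matches. The deposited file holds raw counts per gene. Its 33604 rows include 2 stray header lines, which were removed.

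Genes were kept by filterByExpr (minimum count 10), scaled by TMM (factors 0.932 to 1.07) and tested with edgeR 4.0.16 in R 4.3.3 (robust quasi-likelihood fit, 4 residual degrees of freedom, biological coefficient of variation 0.177), and p-values were adjusted by Benjamini-Hochberg over all 18504 tested genes. Standard errors are the size of the unshrunken log2 fold change divided by the square root of F. The log2 fold changes printed are the slightly shrunken ones that edgeR reports. Log2 ratios of a pair of genes were taken per library with 0.5 added to each count, and tested by exact permutation. Of the 8 ratios 4 (OXI1, ATTI1, AT1G05340 and RCD1 to their nearest relatives) were added after seeing the data, and adjustment over the 8 leaves p at 0.1. The scripts were checked on simulated counts. Every pair of replicate libraries differed beyond counting noise (the chi-square divided by its degrees of freedom was 9.28 to 49.8), so none was counted as a duplicate.

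The 10 genes and every gene list were chosen with earlier results of these data known. All 10 are named, and other genes are named from lists of their families, partners and readouts, with HSP81-2 named as the gene closest in pattern to OXI1. AT5G58620 was dropped from the zinc-finger list because the annotation gives its listed symbol to another locus. Its own product is annotated as a CCCH-type zinc finger protein, so the counts and median of that list leave out such a gene. Gene structure, 250-base start regions and symbols came from RefSeq TAIR10.1, and no position was carried over to the TAIR10 counts. Coding sequences were compared with BLAST 2.17.0. Alternatives were DESeq2 1.42.0, limma-voom 3.58.1, other scalings, no filter, a replicate block and leaving out libraries. Protein sequences were not used here.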

Additional observations from a re-analysis of the deposited data

How the results depend on the processing

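All 10 genes were called higher in the main test and in all 14 alternatives, with log2 fold changes of 2.04 to 9.17 and a largest adjusted p of 0.000399 (edgeR, RCD1 without high CO2 replicate 2). For the 34 other genes that were refitted under these alternatives, 453 of 476 values kept direction and call, 16 lost the call, 4 gained it and 3 changed sign in genes not called. These were AT3G10540 (-0.25) and AT1G06700 (-0.26) with upper-quartile scaling and AT3G10540 without high light replicate 2, where leaving out 1 library gave -0.063 to 0.118. With upper-quartile scaling the median log2 fold change over all genes went from -0.06 to -0.33 and the share of rises among all calls from 50.1% to 35.7% (4386 risen and 7883 fallen, against 5631 and 5616), and the 10 genes stayed at 2.04 to 8.50. The counts of risen genes ranged over the alternatives from 2 to 5 for the BAP and BON genes (5 without the filter) and from 1 to 3 for the trypsin inhibitors, with 0 to 1 fallen. Fallen genes ranged from 1 to 3 in the OXI1 module, from 2 to 3 in the zinc-finger list (2 to 3 risen), from 0 to 1 in the cysteine-rich list and from 0 to 2 in the singlet oxygen list. Risen counts did not move in the SRO, RCD1 partner, marker, TIR-domain, OXI1 module, cysteine-rich and singlet oxygen lists.

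Deviations of same-numbered libraries from their group means correlated at 0.219, -0.0207 and 0.410, and the labels do not say that a number marks a shared run, so the libraries were not paired. With a replicate block, edgeR called 5880 genes higher and 6071 lower and the 10 genes all higher, and AT2G43535 was called lower (log2 fold change -0.67, adjusted p = 0.00521). High CO2 replicate 1 correlated best with high light replicate 2 (0.235), so not every library matched its own number. Each ratio with a replicate block had the smallest p that 3 pairs allow (exact sign-flip test, p = 0.25). With 1 library left out every ratio had p = 0.2 (exact permutation test, the smaller tail doubled). The values over all alternatives were, for SRO5 to RCD1 5.81 to 6.77, SRO2 to RCD1 2.26 to 2.52, BAP1 to BAP2 4.18 to 4.86 and CZF1 to SZF1 -1.21 to -0.996. High CO2 levels of SRO5, BAP1, OXI1 and AT1G05340 rest on 10, 13, 22 and 24 counts, which limits their folds more than the high light values do.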
